A study of Homo sapiens with 6 samples.

Results

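The immediate early and MAPK feedback genes examined here are EGR1, FOS, JUN, FOSB, IER3, DUSP1 and DUSP6. They were chosen by probe identifier, which gave 8 probes of 7 genes among the 47231 probes of the array, of which 30113 are paired with a single gene symbol (20046 genes). EGR1, FOS, JUN, FOSB, IER3 and DUSP1 have 1 probe each and DUSP6 has 2, which the platform annotation pairs with different transcripts of the gene. The study asked what TARDBP does in the human liver cancer line SK-Hep1. TARDBP encodes TDP-43, an RNA- and DNA-binding protein of splicing and RNA stability. Total RNA of SK-Hep1 cells was hybridised to 6 bead arrays, 3 of cells that received siLuc as the control and 3 of cells in which TARDBP was knocked down with siTARDBP. Both groups are the same cell line and both received an siRNA, and neither a time after transfection nor a growth factor or serum treatment is given in the labels. Nothing in the labels tells whether replicates are separate cultures, and the p-values below cover no more than the spread among these 6 samples, part of which may be technical.

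Immediate early genes are transcribed within minutes of a growth factor or stress signal, without new protein synthesis. The signal runs from a receptor through RAS, RAF and MEK to the kinase ERK, which phosphorylates transcription factors such as ELK1 that sit with SRF on CArG boxes, the core of the serum response element. The first genes switched on encode transcription factors (EGR1 and the AP-1 subunits FOS, FOSB and JUN), and others encode proteins that end the signal, among them the phosphatases DUSP1 and DUSP6, which remove phosphate from MAP kinases. In unstimulated cultured cells many of these transcripts are kept low by rapid decay, while DUSP6 is commonly read as a gauge of sustained ERK output.

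Of the 5 genes that could be tested, EGR1 and DUSP6 passed the test for a change, while DUSP1, a phosphatase like DUSP6, did not. The bases before the start sites of EGR1, DUSP1 and DUSP6 are therefore shown. They are RefSeq sequences of GRCh38.p14, and 6 of the 7 genes had a single entry (all but IER3). EGR1 lies on the plus strand (chr5:138465229-138465478), DUSP1 on the minus strand (chr5:172771196-172771445) and DUSP6 on the minus strand (chr12:89352502-89352751). Each run covers the 250 bases before the start, 5′ to 3′ on the strand of the gene. Capitals mark CArG boxes in EGR1, and the CRE (TGACGTCA) and the TATA box (TATAAA) in DUSP1. In DUSP6 none of the motifs searched was found, so it has no capitals.
EGR1: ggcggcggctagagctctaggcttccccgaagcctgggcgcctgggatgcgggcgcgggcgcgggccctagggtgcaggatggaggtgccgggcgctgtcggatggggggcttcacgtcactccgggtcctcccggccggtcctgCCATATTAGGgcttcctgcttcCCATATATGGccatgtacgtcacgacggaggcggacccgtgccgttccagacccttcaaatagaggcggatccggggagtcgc
DUSP1: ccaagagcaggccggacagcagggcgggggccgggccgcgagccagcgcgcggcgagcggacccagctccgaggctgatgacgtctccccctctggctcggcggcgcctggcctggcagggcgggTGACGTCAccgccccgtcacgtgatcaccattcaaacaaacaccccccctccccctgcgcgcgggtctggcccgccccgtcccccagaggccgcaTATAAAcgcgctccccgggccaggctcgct
DUSP6: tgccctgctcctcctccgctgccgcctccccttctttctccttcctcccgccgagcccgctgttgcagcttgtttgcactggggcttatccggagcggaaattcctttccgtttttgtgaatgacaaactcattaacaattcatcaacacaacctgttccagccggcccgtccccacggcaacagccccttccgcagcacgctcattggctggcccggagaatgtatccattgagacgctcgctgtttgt

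In windows of 250 bases before to 50 bases after the start, searched on both strands, EGR1 held 2 CArG boxes, beginning 105 and 83 bases before the start. A CArG box was found in 1.29% of 35116 RefSeq promoters of the same length. None of the other 5 windows held one. DUSP1 held a CRE, 125 bases before its start, which 1.85% of promoters hold. The short form of the CRE (TGACG), which overlaps the full CRE wherever that occurs, was found in EGR1 (2 matches), FOS (1), JUN (1), FOSB (1) and DUSP1 (4), against 24.6% of promoters. TATAAA was found in FOS, FOSB and DUSP1 and in 11.5% of promoters. The AP-1 site TGACTCA (4.95% of promoters) and the EGR sites GCGTGGGCG and GCGGGGGCG (5.77%) were in none of the 6 windows. These matches describe letters in a short window and not binding.

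The probe for TARDBP read 265, 214 and 203 raw intensity units in siLuc and 136, 84.0 and 96.5 in siTARDBP. The groups were apart, and 1 of the 3 siTARDBP arrays was under the estimated background. TARDBP changed by -0.99 on the log2 scale (SE 0.11, limma adjusted p = 1.6e-05), so the labels and the targeted gene go the same way. Intensities are linear and were deposited without normalization, and array medians lay between 64.4 and 83.0. Arrays numbered 2 of both groups had a lower background (modes of 58.9 and 59.3) than the other 4 (71.6 to 75.9). The estimated background level, under which 95% of a symmetric background would lie, was between 81.4 and 128 units, and 15149 probes (32.1%) exceeded it on at least 3 arrays and were tested. Of the hepatocyte marker genes of the labelled tissue, 1 of 8 (SERPINA1) was above background on all 6 arrays. ALB was above it on 5 arrays with 1 of its 2 probes, AFP on 2 siLuc arrays, and APOA1, APOB, TTR, TF and FGB on none. Of the mesenchymal and adherent marker genes, 3 of 5 were above background on all 6 arrays. Among these VIM was bright, with raw means of 20384 and 20004 units in siLuc and siTARDBP. In the endothelial and blood lists, 0 of 6 and 0 of 4 marker genes were above background on all arrays.

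Of the 8 probes, 6 were above background on all 6 arrays and were tested, and 2 (FOS and FOSB) were above it on none. After TARDBP knockdown EGR1 fell, DUSP6 rose with both of its probes, and JUN, IER3 and DUSP1 did not pass an adjusted p of 0.05. Thus 3 of 6 tested probes, of 2 genes, were called, against 11.2% of all tested probes. These genes were chosen with earlier results of these data known, so the comparison is descriptive. By direction, 2 probes were higher (5.86% of all tested probes were) and 1 was lower (5.33%). The 3 called probes were also those whose siLuc and siTARDBP arrays did not overlap in normalised level, as was true of 29.5% of all tested probes. The median log2 difference of the 6 tested probes was 0.05, against -0.0040 over all tested probes.

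**Figure D1:**
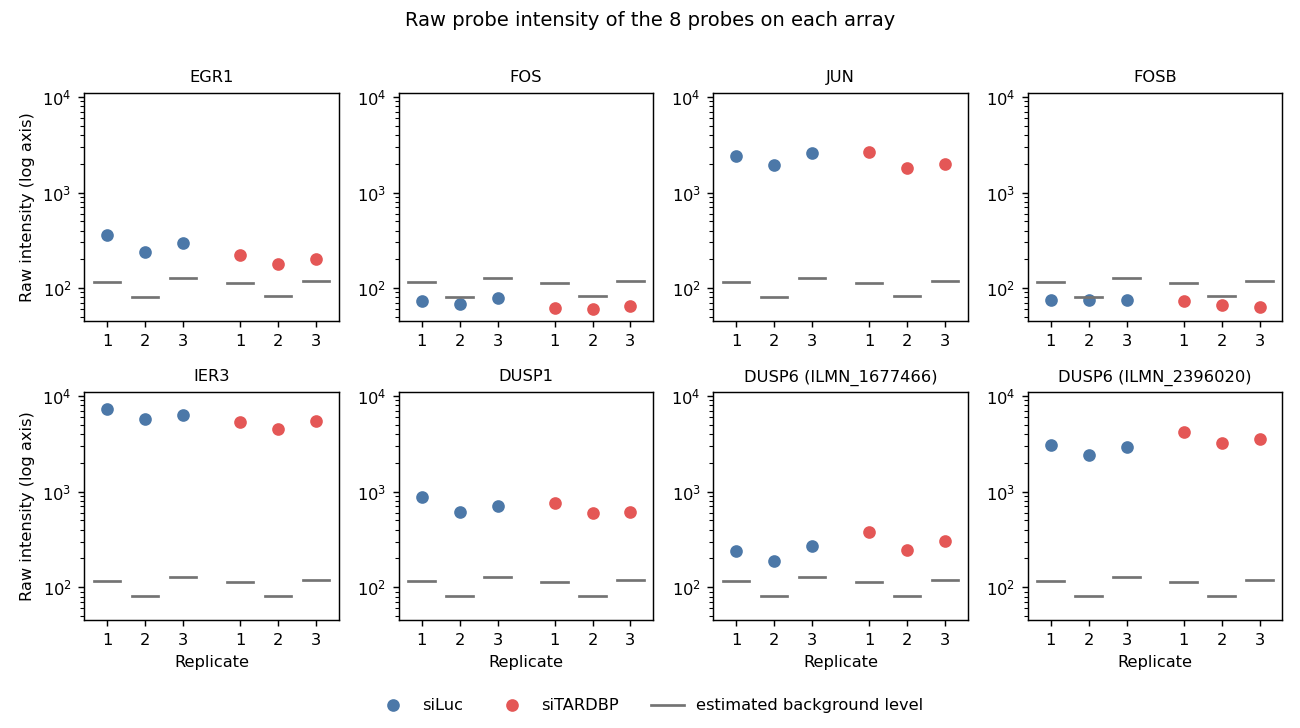
Raw intensity (log axis) of the 8 probes on each array, by group and replicate, with the estimated background level of each array as a grey line. FOS and FOSB lie under that line on all 6 arrays, while IER3 lies between 4492 and 7417 units.

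EGR1 encodes a zinc-finger transcription factor that is among the first genes induced by ERK. Its probe, ILMN_1762899, read 362, 241 and 298 raw units on siLuc arrays 1, 2 and 3 and 224, 180 and 201 on the siTARDBP arrays. Every siTARDBP array lay below every siLuc array, with siLuc replicate 1 the highest of all. The normalised level was 8.23 ± 0.13 in siLuc and 7.80 ± 0.098 in siTARDBP (log2, mean ± SD, n = 3 each). EGR1 thus differed by -0.43 (SE 0.10, 95% interval -0.64 to -0.21), which is 1.34-fold lower (limma adjusted p = 0.011). Of all tested probes, 5.64% had a larger change in either direction. Without siLuc replicate 1 the difference was -0.35 and no longer passed the threshold (limma adjusted p = 0.058). The log2 difference was -0.50 between the 4 arrays of higher background and -0.27 between the arrays numbered 2. In RNA of whole cultures, a lower level per cell and fewer cells expressing the gene cannot be told apart.

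The AP-1 subunits form dimers that bind TGACTCA-like sites, and JUN can pair with itself while FOS and FOSB need a JUN partner. JUN (ILMN_1806023) read 2419, 1922 and 2574 raw units in siLuc and 2666, 1788 and 1988 in siTARDBP, and the groups overlapped. The difference in normalised level was 0.08 with a 95% interval of -0.12 to 0.29 on the log2 scale (limma adjusted p = 0.64). That interval spans 0.92-fold to 1.22-fold. Under median scaling over all probes the sign of the JUN difference turned (-0.08), so no direction can be read from it.

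FOS, the founding partner of JUN and a transcript with a very short life, has the probe ILMN_1669523, which read 73.8, 68.3 and 78.9 raw units in siLuc and 61.4, 60.6 and 65.7 in siTARDBP. All siTARDBP readings were the lower ones, but all 6 arrays were below their background level. FOSB (ILMN_1751607), its close relative, read 74.3, 75.2 and 74.6 in siLuc and 73.0, 66.0 and 63.3 in siTARDBP, likewise below background throughout. No fold is given for either gene, because both groups are at a level that these arrays do not separate from background. In a fit over all 47231 probes without the filter, the limma adjusted p was 0.49 for FOS and 0.80 for FOSB.

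IER3, an early response protein linked to cell survival under stress, has the probe ILMN_1682717. It read 7417, 5772 and 6386 raw units in siLuc and 5369, 4492 and 5453 in siTARDBP. On the raw scale each siTARDBP array lay below each siLuc array, but after normalization siTARDBP replicate 3 (12.58) lay between siLuc replicates 3 (12.50) and 2 (12.59). The normalised difference was -0.21 (SE 0.11, 95% interval -0.44 to 0.011, limma adjusted p = 0.22), which does not pass the threshold.

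**Figure D2:**
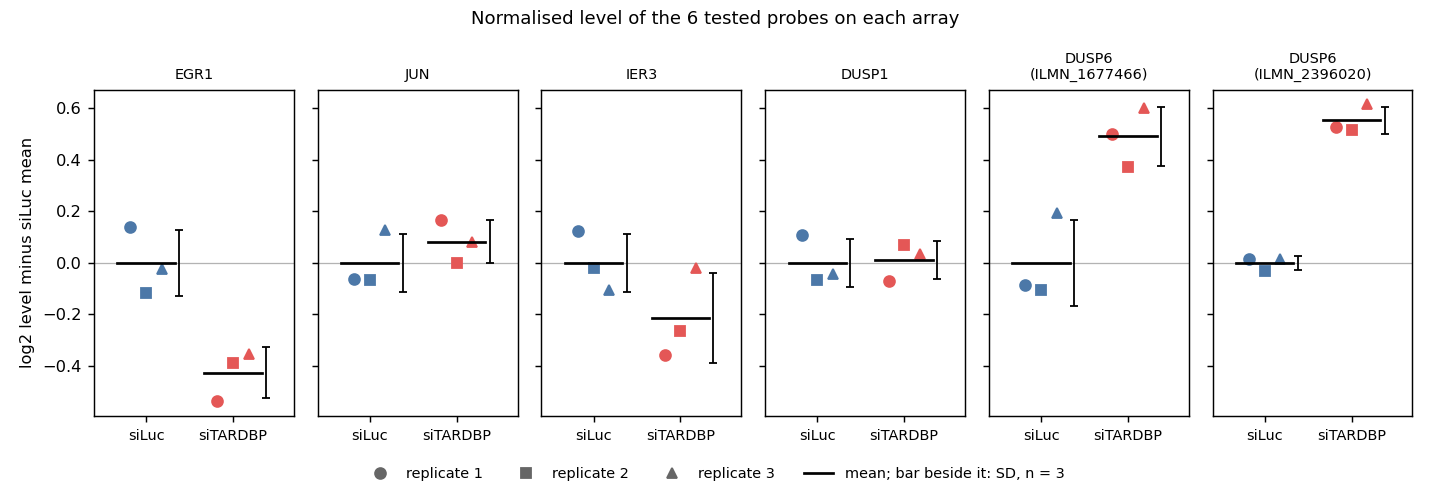
Normalised log2 level of the 6 tested probes on each array, relative to the siLuc mean of the probe. Black lines are group means and bars beside them the SD (n = 3). The groups are apart for EGR1 and for both DUSP6 probes and overlap for JUN, IER3 and DUSP1.

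Of the 2 phosphatase genes, DUSP6 rose and DUSP1 did not pass the test, and the difference between them was not tested. DUSP1 is nuclear, is itself an immediate early gene, and acts on p38 and JNK as well as ERK. Its probe, ILMN_1781285, read 870, 606 and 709 raw units in siLuc and 755, 598 and 615 in siTARDBP, and the groups overlapped. The normalised levels were 9.46 ± 0.093 and 9.47 ± 0.072 (log2, mean ± SD, n = 3 each). The difference of 0.01 had a 95% interval of -0.19 to 0.21 (limma adjusted p = 0.96), and 94.9% of tested probes had a larger one. Scaling to the median of tested probes, where quantile normalization had been used, turned it to -0.02, so no direction can be read here either.

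DUSP6 is cytoplasmic and acts on ERK with high preference. The brighter probe, ILMN_2396020, read 3074, 2411 and 2916 raw units in siLuc and 4186, 3265 and 3538 in siTARDBP. All 3 siTARDBP arrays were above all 3 siLuc arrays even without normalization. Its normalised level was 11.38 ± 0.027 in siLuc and 11.93 ± 0.054 in siTARDBP (log2, mean ± SD, n = 3 each), the tightest replicates of the set. This is a rise of 0.55 (SE 0.090, 95% interval 0.36 to 0.74), or 1.47-fold (limma adjusted p = 0.00072), and 2.63% of tested probes had a larger difference.

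The dimmer DUSP6 probe, ILMN_1677466, read 237, 188 and 272 raw units in siLuc and 378, 243 and 308 in siTARDBP. The raw groups overlapped, and the normalised ones did not. This probe rose by 0.49 (SE 0.11, 95% interval 0.27 to 0.72), or 1.41-fold (limma adjusted p = 0.0059). Each of these differences is nearly the same in both background classes, at 0.56 and 0.55 for the brighter probe and 0.50 and 0.48 for the dimmer one in the higher and the lower class. Averaged per array, the 2 probes gave a difference of 0.52 (limma adjusted p = 0.0018). Scaling to the median of all probes, which lies under the background level, gave 0.41 for both probes and ended the calls (limma adjusted p = 0.066 for the brighter and 0.071 for the dimmer probe). Under that scaling both DUSP6 probes had an SE of 0.148, and the median difference of all tested probes was -0.0875. The 2 probes share a gene and the same 6 RNA samples, and their intensities cannot be set against each other.

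**Figure D3:**
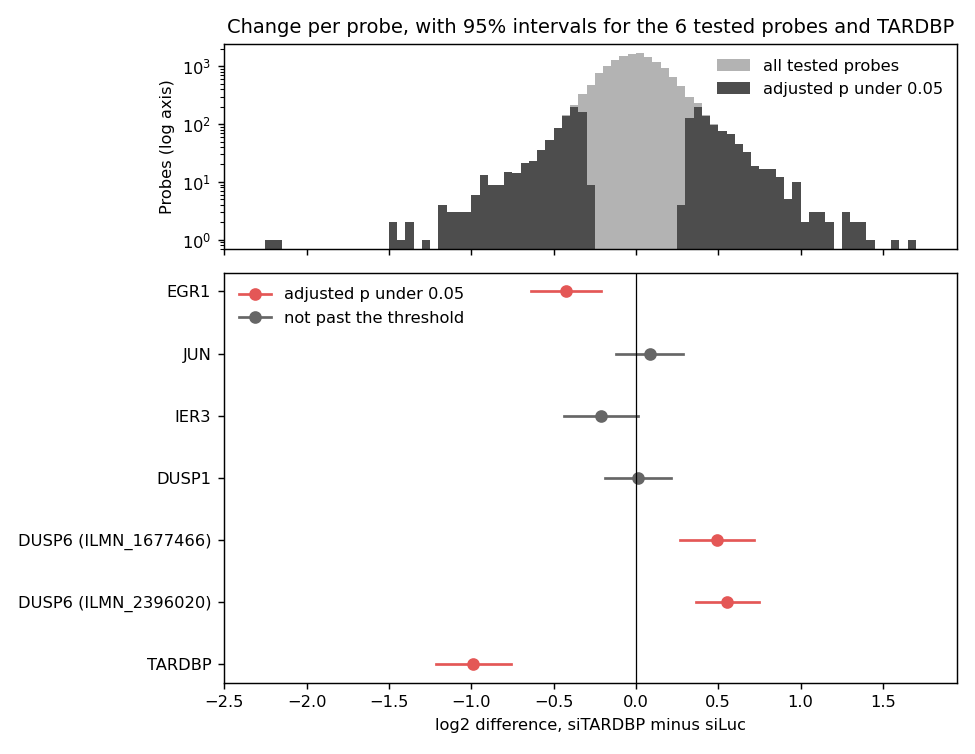
Log2 difference of siTARDBP minus siLuc. The upper panel counts all 15149 tested probes (light) and those with an adjusted p under 0.05 (dark) on a log axis, and the lower panel shows the 6 tested probes and TARDBP with 95% intervals. Intervals of EGR1, both DUSP6 probes and TARDBP lie clear of 0, and those of JUN, IER3 and DUSP1 include it.

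The genes around these 7 were read from lists of signalling components. Outside the 7 genes, the lists held 124 genes with a probe, of which 83 were tested with 114 probes. Of these probes 22 (19.3%) were called, 12 higher and 10 lower, against 11.2% of all tested probes, and their median log2 difference was 0.03. The lists too were chosen with earlier results of these data known, so this share is descriptive and not an independent comparison. Where a gene has several probes, they did not always go together. A call of such a gene is given with the number of its probes called or with the differences of its other probes.

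Among ligands and receptors, 3 of 13 tested probes were higher and 2 lower. NRG1, a ligand of the ERBB receptors, rose with 1 of its 3 tested probes, from 2857, 2218 and 2629 raw units in siLuc to 4207, 2897 and 3440 in siTARDBP, with no overlap. The rise was 0.62 (SE 0.095, limma adjusted p = 0.00042), and the other two probes differed by 0.21 and 0.18 without passing. MET, the receptor of hepatocyte growth factor, read 1404, 1075 and 1104 in siLuc and 2098, 1449 and 1334 in siTARDBP. It rose by 0.60 (SE 0.10, limma adjusted p = 0.0012), and its groups did not overlap in normalised level. EREG, a ligand of EGFR, rose by 0.60 with the larger SE of 0.18 (limma adjusted p = 0.042), and its groups overlapped. FGF2, a fibroblast growth factor, fell by 0.48 with 1 of 2 tested probes, and FGFR4, a receptor of that family, fell by 0.34 with 1 of 2. Each of these 3 calls was lost on leaving out any 1 of 4 arrays. EREG missed the threshold without siLuc replicate 2 or 3 or siTARDBP replicate 1 or 3 (highest adjusted p 0.19, difference 0.39), FGF2 without siLuc replicate 1 or 2 or siTARDBP replicate 1 or 3 (highest 0.097, -0.30) and FGFR4 without the same 4 arrays as FGF2 (highest 0.18, -0.26). EGFR and ERBB2 did not pass, with differences of 0.12 and 0.18 for the 2 EGFR probes and 0.03 for ERBB2.

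In the RAS-ERK core, 3 of 23 tested probes were higher and 5 lower. The largest change was that of ELK1, the ERK-phosphorylated partner of SRF on CArG boxes. It read 677, 579 and 710 raw units in siLuc and 352, 292 and 279 in siTARDBP, and no siTARDBP array reached the siLuc range. ELK1 changed by -0.93 (SE 0.098), a 1.91-fold fall (limma adjusted p = 1.2e-05). ELK3, of the same factor family and known chiefly as a repressor, rose by 0.46 (limma adjusted p = 0.013), while SRF differed by 0.29 without passing (limma adjusted p = 0.074). The GTPase HRAS fell by 0.36, PTPN11, the phosphatase SHP2 that carries receptor signals to RAS, fell by 0.43, and the kinases RPS6KA5 and RPS6KA1, which act downstream of ERK, fell by 0.38 and 0.41. RPS6KA1 was above background on only 1 siTARDBP array, so its fall is limited by the background. The calls of HRAS, RPS6KA5, RPS6KA1 and ELK3 were lost without siLuc replicate 1, siLuc replicate 2 or siTARDBP replicate 3, and the first 3 also without siLuc replicate 3. RPS6KA5 and RPS6KA1 lost theirs without siTARDBP replicate 1 as well. The highest adjusted p without 1 array was 0.16 for HRAS (-0.28), 0.14 for RPS6KA5 (-0.29), 0.13 for RPS6KA1 (-0.30) and 0.089 for ELK3 (0.37). The adaptor SHC1 rose by 0.67 with 1 probe and differed by 0.26 without passing with its brighter one. The adaptor GRB2 rose by 0.40 with 1 probe and differed by -0.05 with another, so its probes disagree, and the call was lost without siLuc replicate 2 (adjusted p = 0.0501) or siTARDBP replicate 3 (0.056). MAP2K1, MAP2K2 and MAPK3, which encode MEK and ERK kinases, did not pass. In the JNK and p38 list 0 of 18 tested probes passed the limma threshold, and 2 had an unadjusted p under 0.05.

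Among the feedback inhibitors other than phosphatases, 1 of 8 tested probes was higher and 1 lower. ERRFI1, which binds and inhibits EGFR family receptors, rose by 0.52 (SE 0.095, limma adjusted p = 0.0018). It read 1763, 1564 and 1524 raw units in siLuc and 2474, 1799 and 1927 in siTARDBP. SPRY1, an inhibitor of growth factor signalling to ERK, fell by 0.53 with 1 of 2 tested probes (SE 0.096, limma adjusted p = 0.0016). The called probe read 285, 263 and 263 in siLuc and 197, 148 and 170 in siTARDBP, and the groups were apart. The other tested SPRY1 probe differed by -0.19 without passing. SPRY2, SPRY4, SPRED1, SPRED2 and IL17RD did not pass, with differences from -0.31 to 0.12. For SPRED1 (-0.31, limma adjusted p = 0.083) every siTARDBP array lay below every siLuc array, raw and normalised, while the groups of the others overlapped. Among the phosphatases, DUSP5, DUSP8 and DUSP16 differed by 0.27, 0.23 and -0.02 and did not pass (limma adjusted p = 0.097, 0.16 and 0.94). Of the 5 phosphatase genes tested, DUSP6 was thus the only one called. However, all siTARDBP arrays were also above all siLuc arrays in normalised level for DUSP5 and DUSP8, while the DUSP16 groups overlapped.

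The genes known as transcriptional output of ERK showed 2 higher and 1 lower of 14 tested probes, with a median of 0.14. The 2 higher ones are the DUSP6 probes, which are also part of that median. ETV5, an ETS factor induced by ERK, fell by 0.46 with 1 probe (limma adjusted p = 0.0096) and differed by 0.06 with the other. Its call was lost without siLuc replicate 2 (-0.36, adjusted p = 0.067) or siTARDBP replicate 3 (-0.43, 0.052). CCND1 (0.24), EPHA2 (0.24), EPHA4 (0.18) and FOSL1 (0.13) lay above 0 without passing, and PHLDA1 differed by 0.22 and -0.14 with its 2 probes. SPRY2 (-0.09) and SPRY4 (0.12), also in this list, did not pass.

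Of the AP-1 list, MAFG, a small MAF protein that dimerises with other basic leucine zipper factors, rose with both of its tested probes. The rises were 0.57 and 0.72 (limma adjusted p = 0.0015 for each), and a further MAFG probe was under background on every array and was not tested. FOSL1, FOSL2, JUND, ATF3, BATF3, JDP2 and MAFF did not pass with any tested probe. JUNB and BATF had no probe above background on 3 arrays and were not tested. In the EGR and NR4A list EGR1 was the lone call. The EGR corepressors NAB1 and NAB2 differed by -0.03 and -0.05, and no probe of EGR3, EGR4, NR4A1, NR4A2 or NR4A3 reached the level needed for a test. Of the other immediate early genes, 3 of 28 tested probes were higher and 1 was lower. MYC, a growth-promoting transcription factor, rose by 0.45 with 1 probe (limma adjusted p = 0.0036) and differed by 0.27 with the other (adjusted p = 0.070). The kinase SGK1 rose by 0.38 with 1 of 3 tested probes. That call was lost without siLuc replicate 3 (limma adjusted p = 0.087) or siTARDBP replicate 1 (0.074). The other tested SGK1 probes differed by 0.14 and 0.28 without passing. KLF2, a zinc-finger factor, rose by 0.32, a call lost on leaving out any single array (highest adjusted p 0.14). CSRNP1, a nuclear protein first described as induced by AXIN1, fell by 0.43 (limma adjusted p = 0.0069). IER2, IER5, ZFP36, KLF4, KLF6, KLF10 and HBEGF did not pass, with differences between -0.07 and 0.24. TRIB1 (-0.20), BHLHE40 (-0.14), RHOB (0.23), ZFP36L1 (0.05) and ZFP36L2 (0.23) did not pass either. Neither did MCL1, with differences of 0.23 and 0.07 for its probes. PLAUR differed by -0.35 with 1 probe (limma adjusted p = 0.070) and by 0.03 and 0.05 with the others, all without passing.

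**Figure D4:**
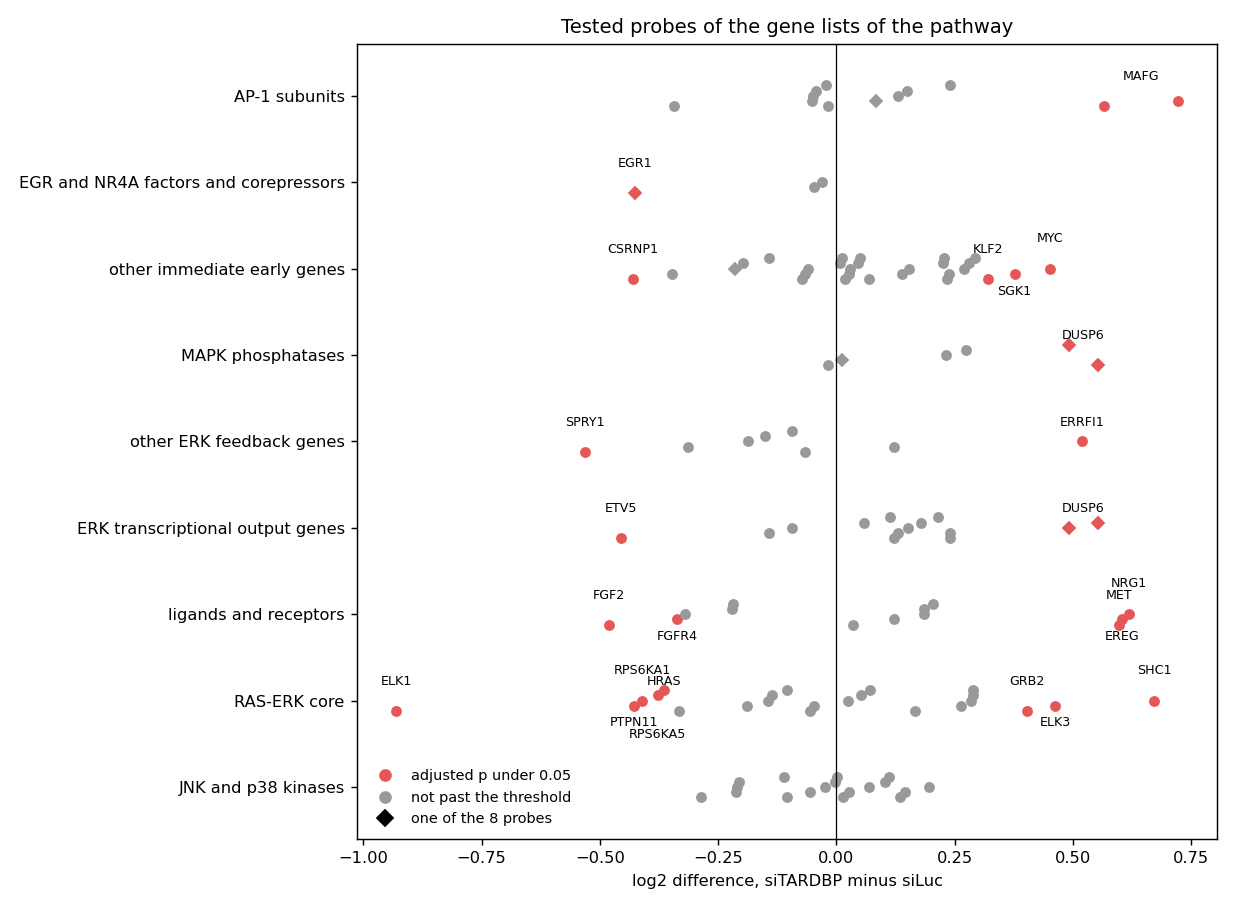
Log2 difference of siTARDBP minus siLuc for every tested probe of the signalling lists, called probes in red with their gene names, and the tested probes of the 7 genes as diamonds. A gene in several lists is drawn in each. Called probes lie on both sides of 0 in the lists of ligands and receptors, the RAS-ERK core and other ERK feedback genes. The same is true of the other immediate early genes and the ERK transcriptional output genes.

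Over the 6 arrays, the level of EGR1 was most like that of DEK, ZNF280D and PCNP (Pearson's r of 0.997, 0.995 and 0.994). The brighter DUSP6 probe was most like MED28, C17orf58 and NKAP (0.998, 0.998 and 0.997) and the dimmer one most like APH1B, BCL7A and FAM220A (0.998, 0.995 and 0.995). These are the highest of 12273 probes compared over 6 points that fall into 2 groups. Of those probes 475 exceeded 0.9 with EGR1, 671 with the brighter DUSP6 probe and 340 with the dimmer one. A high correlation does not give the size of a change. ZNF280D, APH1B and FAM220A differed by -0.29, 0.15 and 0.14 and did not pass the threshold.

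**Figure D5:**
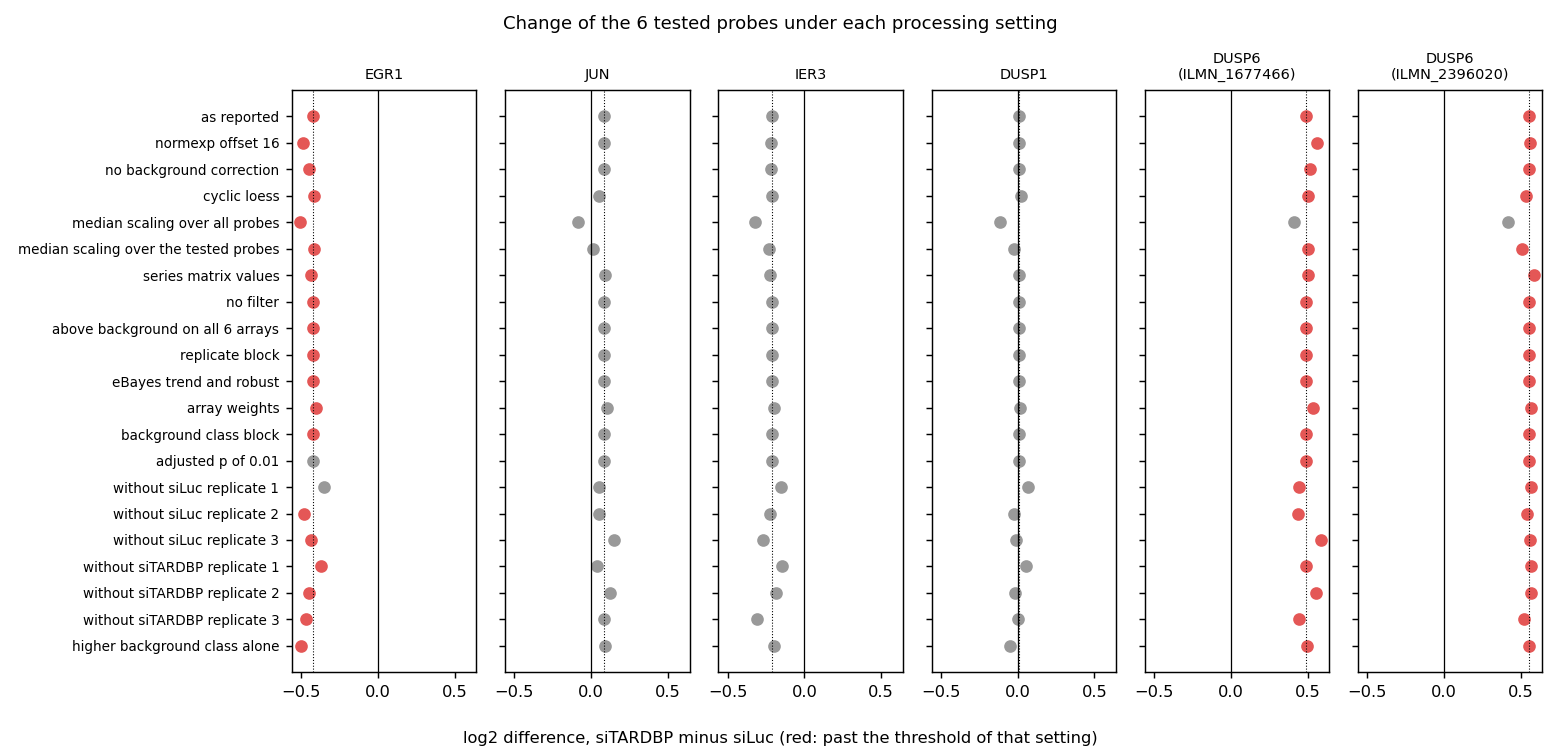
Log2 difference of the 6 tested probes under each processing setting, red where it passed the threshold of that setting, with a dotted line at the reported value. EGR1 stays below 0 and both DUSP6 probes above 0 throughout, while DUSP1 lies on either side of 0. Settings that change only the filter, block, variance estimate or threshold repeat the reported difference.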

How the data were processed

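Gene expression of SK-Hep1 cells was measured on 6 Illumina Human-HT12 BeadChips, 3 siLuc and 3 siTARDBP, grouped by sample title. The main table holds linear intensity values per probe, exported by the authors with BeadStudio and not normalized, per the labels and the submitters' processing notes. The sources used here do not give the BeadStudio version or any background subtraction. A second deposited table holds log2 values with 1 common distribution over the arrays, as quantile normalization gives. Each of its columns lay within 0.264 of log2 of the quantile-normalised intensity of its array, and it served as an alternative. Probes were named from the platform annotation (30113 probes with 1 symbol, 8 with several, 17110 unnamed).

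Background was corrected by normexp with an offset of 50, arrays were quantile-normalised, and log2 values were tested with limma 3.58.1 (lmFit and eBayes, R 4.3.3), 2 groups without a block. The offset compresses folds of dim probes. No detection p-values were given, so a background level was estimated per array: values below the mode of the dim peak were mirrored, and the level under which 95% would lie was taken. Probes above it on at least 3 arrays were tested, and p-values were adjusted over all of them (Benjamini-Hochberg, threshold 0.05). The code was tested on simulated data.

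The genes and lists were chosen with earlier results of these data known. Named genes are the 8 probes, every called list gene, chosen uncalled ones, and for each called probe the 3 probes most correlated with it. The uncalled list genes were chosen after their values were seen.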

Additional observations from a re-analysis of the deposited data

How the results depend on the processing

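Some alternatives changed only the probe filter, the block, the variance estimate or the threshold. These leave the log2 difference of a probe as it was, so its direction could not turn there. EGR1 kept its direction in all 20 alternatives (-0.51 to -0.35 on the log2 scale, limma adjusted p of 0.0090 to 0.058). It missed a threshold of 0.01 (-0.43). Both DUSP6 probes kept theirs in all 21, at 0.41 to 0.59 (dimmer probe) and 0.41 to 0.58 (brighter probe). Their calls were lost under median scaling over all probes (0.410 and 0.414). There 1 of the 8 probes was past the threshold. In all 1016 probes passed, 282 higher and 734 lower (887 and 808 as reported), and 6 list probes were higher. JUN was -0.083 and DUSP1 -0.11. In that setting the median difference of all tested probes was -0.0875, and the SE was 0.148 for EGR1, JUN and DUSP6 alike. DUSP1 was also -0.021 under median scaling over the tested probes. IER3 (-0.32 to -0.15) passed in none. A threshold of 0.01 left 765 probes (430 higher, 335 lower) and 7 higher and 5 lower list probes, being stricter. The 4 arrays of higher background, a setting added after seeing the data, left 827 probes (457 higher, 370 lower), 5 lower list probes and -0.050 for DUSP1.

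Without any 1 array, between 950 and 1787 probes were called (511 to 931 higher, 422 to 856 lower), with 8 to 11 list probes higher and 4 to 12 lower. The lowest totals came without siTARDBP replicate 3 (950) and siLuc replicate 2 (954), and without siLuc replicate 1 510 probes were lower. Of the 8 probes, 2 to 3 were called, EGR1 ranged from -0.48 to -0.35, and DUSP1 from -0.020 to 0.065. List genes that lost their call in over 5 alternatives were KLF2 (13 of 20), EREG (11), FGFR4 (9), HRAS (8), RPS6KA5 (8), RPS6KA1 (8 of 18) and FGF2 (6). TARDBP, ELK1, NRG1, MET, SHC1, PTPN11, SPRY1 and MAFG lost none in which they were tested. With 1 probe a gene, 8 list probes were higher and 10 lower.

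With the replicate block, 1746 probes passed and the same 3 of the 8 were called (EGR1 adjusted p = 0.018). Deviations of same-numbered arrays correlated by 0.11, 0.10 and -0.0022, and siLuc replicate 3 correlated more with siTARDBP replicate 2 (0.064), so no pairing was assumed. Signal over background limits FOS and FOSB, and 32082 probes were not tested.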
